A study of Homo sapiens with 12 samples.

Results

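The genes described here are 43 members of the G1/S and DNA replication programme, and their mRNA was followed in a neuroblastoma line given a GRHL1 plasmid or an empty one. They were chosen by name, as every array probe whose platform gene symbol is one of the 43. All 43 symbols were on the array, among 20046 gene symbols in all, and 62 probes carried them. Of these genes 42 passed the detection filter and were tested, out of 12323 genes tested. The exception was CCNE2, which encodes cyclin E2, whose 1 probe was detected on 0 of 12 arrays and read between 86.2 and 105.3 units.

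BE(2)-C, a MYCN-amplified human neuroblastoma line cloned from SK-N-BE(2), received 2 µg of plasmid by transfection, either pTRex-GRHL1 or the empty vector pTRex-Dest30. Total RNA was collected at 24, 48 and 72 h, giving 6 groups of 2 Illumina BeadChip arrays, and every group was grown in the same medium (DMEM, 10% serum, 1% NEAA). The expression was transient in 1 cloned line, and the labels do not give the share of cells that took up the plasmid. GRHL1 belongs to the grainyhead family of transcription factors, which act mainly in epithelia, and the series asked what its forced expression does to transcription in these cells.

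A cell that leaves G1 turns on a set of genes that the E2F transcription factors control and that RB1 holds back. Before S phase, ORC1, ORC6, CDC6 and CDT1 help load the MCM2 to MCM7 helicase on origins. CDC45 and the GINS complex activate it, and the polymerases copy DNA on the PCNA sliding clamp that the RFC clamp loader places. In neuroblastoma with amplified MYCN this programme is known to run at a high level.

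The GRHL1 probe read 92.3 to 122.8 units on the 6 empty vector arrays and 4669 to 12964 units on the 6 GRHL1 arrays, so the labels of the normalized table and the transgene ran together on every array. The scanner table named 7 of the 12 columns differently from the normalized table, most of them with the other plasmid. Of the 7, 2 had another time (in the normalized table, GRHL1 48 h replicate 1 and empty vector 72 h replicate 1). The normalized table's names were used, and every comparison below was repeated without those 2 arrays. Between 17950 and 19427 of 47323 probes were detected per array, with a detection limit of about 128.4 normalized units. Across genes, the 2 arrays of each group had a correlation r of 0.9917 to 0.9924. All 12 neuroblastoma identity markers on the array, MYCN and PHOX2A among them, lay above the limit on every array, with summed levels of 69176 to 75417 units in empty vector cells and 68464 to 73394 in GRHL1 cells. One of the 12 passed the test for the plasmid in the averaged comparison, SLC18A1 (vesicular monoamine transporter 1), which read 1112 to 1466 units with empty vector and 960.1 to 1240.3 with GRHL1. Its log2 difference was -0.35 (SE 0.07, adjusted p 0.0397 by limma, 0.000348 to 0.135 over the alternatives), and its part in the results was not tested. Of 8 fibroblast markers 4 lay above it on every array (DCN, LUM, PDGFRB and THY1), and of 6 epithelial markers on the array 0 did. The summed fibroblast level was 4584 to 5285 units with empty vector and 4358 to 4772 with GRHL1, and its part in the results was not tested. Precision is limited by the number of arrays. Nothing in the labels tells whether the 2 arrays of a group came from separate cultures, and the p-values then reflect the spread between these samples alone, which may be technical.

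Promoters were read to show what these genes share beyond their names. RefSeq promoters (GRCh38.p14, from 250 bases before to 50 after the start of transcription) were matched for 37 of the 43 members. An exact E2F motif, TTTCCCGC or TTTGGCGC on either strand, was present in 20 of these 37 windows (54.1%), against 2.31% of 27305 promoters in all and 2 of 29 promoters of G2/M and mitosis genes (6.90%). The CCAAT box was present in 22 of 37 (59.5%, against 35.7% of all). The E-box CACGTG, to which MYC and MYCN proteins bind, was in 5 of 37 (13.5%, against 7.43%). In the G2/M promoters these shares were 23 of 29 for the CCAAT box (79.3%) and 5 of 29 for the E-box (17.2%), both higher. The CHR motif of G2/M promoters, TTTGAA or TTCGAA, was in 2 of 37 (5.41%, against 16.6%) and in 22 of the 29 G2/M promoters (75.9%). The palindrome AACCGGTT, the core that grainyhead factors recognise, was in 1 of 37 (2.70%, against 0.117%), the promoter of PCNA. These are matches of letters and not sites shown to be bound. The windows of RFC2, GINS1 and CDC25A, the 3 members with the smallest p in the plasmid comparison averaged over the times, are shown with that of PCNA, which was added once the search had been seen. RFC2 lies at chr7:74254350-74254649 (minus strand), GINS1 at chr20:25407423-25407722 (plus), CDC25A at chr3:48188368-48188667 (minus) and PCNA at chr20:5126573-5126872 (minus), each printed 5′ to 3′ on its own strand with E2F and grainyhead motifs in capitals.
RFC2: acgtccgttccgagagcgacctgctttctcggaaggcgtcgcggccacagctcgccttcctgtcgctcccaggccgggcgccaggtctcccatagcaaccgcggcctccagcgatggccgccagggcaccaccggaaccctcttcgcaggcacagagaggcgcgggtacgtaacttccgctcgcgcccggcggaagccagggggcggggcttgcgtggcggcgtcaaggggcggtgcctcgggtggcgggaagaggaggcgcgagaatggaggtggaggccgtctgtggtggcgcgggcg
GINS1: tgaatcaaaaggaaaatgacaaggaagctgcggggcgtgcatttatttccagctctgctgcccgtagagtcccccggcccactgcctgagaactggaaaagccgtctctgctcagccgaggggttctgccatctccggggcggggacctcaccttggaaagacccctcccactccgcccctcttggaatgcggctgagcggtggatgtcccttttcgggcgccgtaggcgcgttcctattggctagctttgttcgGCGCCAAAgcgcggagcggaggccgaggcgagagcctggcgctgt
CDC25A: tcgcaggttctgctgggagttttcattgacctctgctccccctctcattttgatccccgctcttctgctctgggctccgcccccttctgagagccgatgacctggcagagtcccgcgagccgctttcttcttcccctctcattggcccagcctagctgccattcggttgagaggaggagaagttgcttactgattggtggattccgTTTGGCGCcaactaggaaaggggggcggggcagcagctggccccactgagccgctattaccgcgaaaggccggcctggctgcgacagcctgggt
PCNA: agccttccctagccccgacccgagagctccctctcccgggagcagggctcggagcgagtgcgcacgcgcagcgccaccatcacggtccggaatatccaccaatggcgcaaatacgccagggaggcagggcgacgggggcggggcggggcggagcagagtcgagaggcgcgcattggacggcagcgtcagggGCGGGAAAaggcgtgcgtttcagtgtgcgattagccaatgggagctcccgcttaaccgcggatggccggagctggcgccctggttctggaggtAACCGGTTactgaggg
RFC2 held 0 E2F motifs in this window, and the other three held 1 each. In PCNA the E2F motif (GCGGGAAA, the reverse complement of the first form) began 59 bases before the start, and the grainyhead palindrome began 34 bases after it.

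The first comparison asked whether the GRHL1 plasmid moved the programme, taking the mean of the differences at the 3 times. None of the members passed the test. By limma, 0 of 42 reached a Benjamini-Hochberg adjusted p under 0.05, where 1.71% of all genes tested did. The median log2 difference of the members, GRHL1 minus empty vector, was -0.01, the same to 2 decimals as that of all genes, and 17 of 42 lay above 0 (46.5% of all genes). The members ran from -0.26 for GINS1 to 0.14 for ORC6. Of the 41 members above the detection limit on all arrays, 41 had a 95% interval inside 1.5-fold in either direction (96.1% of all genes), and 37 inside 1.25-fold (66.1%). The shares of all genes include genes below the limit on some arrays, so the sets are unlike. The widest reach of the 41 members was 0.742-fold at the low end (RFC3) and 1.24-fold at the high end (ORC6). Each interval is that of the gene's brightest detected probe. Other probes had log2 estimates of -0.47 (MCM7), -0.32 (POLA1), 0.36 (CCNE1) and 0.43 (RFC5), so these bounds were not shown for every probe. The interval of GINS1, which lay below the limit on 4 of 12 arrays, sets no limit on its change. For 0 of 42 members did all arrays of one plasmid lie apart from all arrays of the other (1.79% of all genes). An unadjusted p under 0.05 was reached by 3 members, RFC2, GINS1 and CDC25A (12.2% of all genes), all with lower values under GRHL1 (5.71% of all genes). None of the 3 was called, so a fall was not shown. In bulk RNA, a change in the share of cells in S phase and a change in RNA per cell cannot be told apart.

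**Figure D1:**
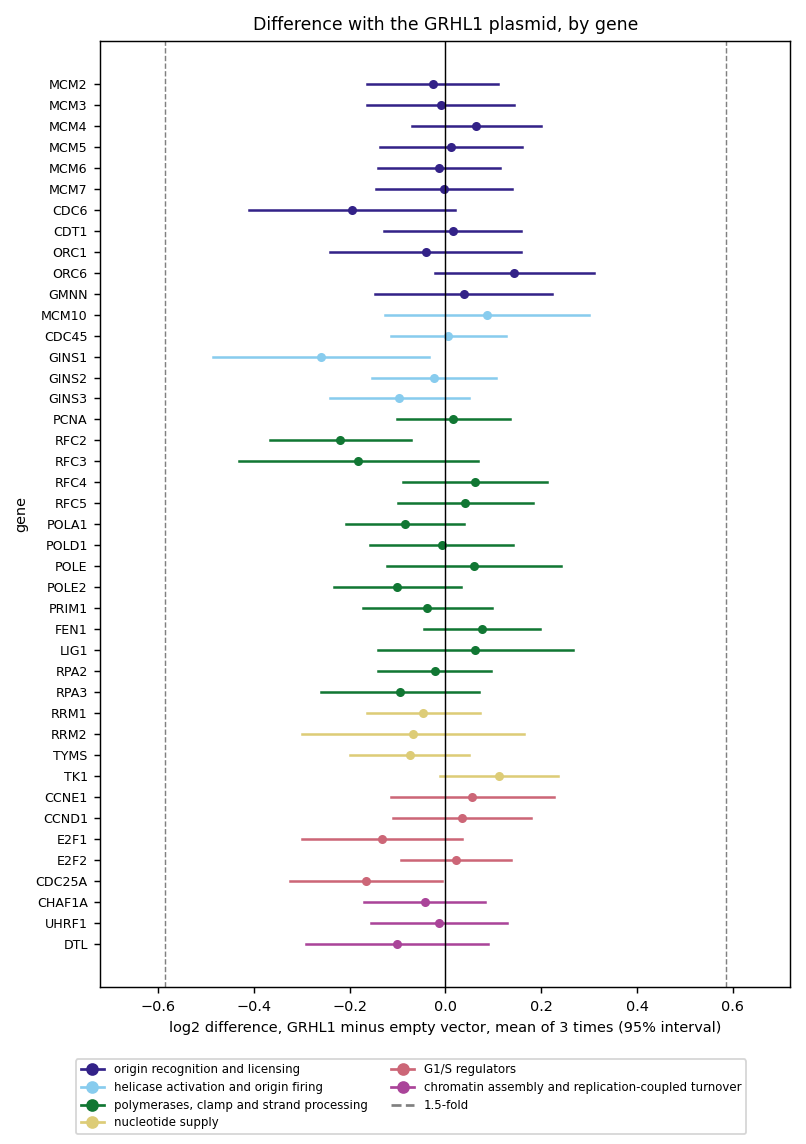
Log2 difference of each of the 42 tested members between GRHL1 and empty vector cells, averaged over the 3 times, with points for the estimate and lines for the 95% interval, coloured by role. Each gene is read from its brightest detected probe. Every interval lies inside the dashed 1.5-fold lines, with estimates from -0.26 for GINS1 to 0.14 for ORC6. That of GINS1 rests on values partly below the detection limit.

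Origin licensing genes lay close to 0. Their 11 members had a median log2 difference of -0.004 in the averaged comparison. Of the 6 helicase subunits, MCM2 differed by -0.03, MCM3 by -0.01, MCM4 by 0.06, MCM5 by 0.01, MCM6 by -0.01 and MCM7 by -0.004 on the log2 scale. The adjusted p of these 6 ran from 0.749 to 0.992. Each value is that of the gene's brightest detected probe, and another MCM7 probe, not called, differed by -0.47. CDC6, the ATPase that recruits the helicase with CDT1, read 164 and 167 units at 24 h with empty vector and 147 and 153 with GRHL1. At 48 h it read 163 and 181 units against 153 and 147, and at 72 h 169 and 167 against 151 and 189. The GRHL1 arrays were thus below the empty vector arrays at 24 and 48 h and on both sides of them at 72 h. The averaged log2 difference of CDC6 was -0.20 (SE 0.10, adjusted p 0.458 by limma). ORC6, a subunit of the origin recognition complex, read 16802 and 17502 units at 24 h with empty vector and 18829.9 and 19869 with GRHL1. At 48 h its values were 15015 and 19765 against 16791 and 18184, and at 72 h 16496 and 15506 against 18765 and 18897. Its GRHL1 arrays were higher at 24 and 72 h and lay within the empty vector range at 48 h. The averaged log2 difference of ORC6 was 0.14 (SE 0.07, adjusted p 0.485), and its other probe differed by -0.07. GMNN, which encodes the CDT1 inhibitor geminin, differed by 0.04 (adjusted p 0.912).

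Helicase activation included the member nearest the detection limit. GINS1, a subunit of the GINS complex, read 149 and 133 units at 24 h with empty vector and 109.8 and 122 with GRHL1. At 48 h it read 136 and 129.7 against 121 and 126, and at 72 h 139.6 and 140.2 against 134 and 156. Both GRHL1 arrays lay below the limit at 24 and 48 h, while all empty vector arrays lay above it. The fold of the measured means is therefore a bound, the empty vector mean over the limit. It was at least 1.10-fold lower at 24 h and at least 1.03-fold lower at 48 h. This bound leaves out the spread between arrays. The fitted differences were not called (adjusted p 0.307 at 24 h and 0.751 at 48 h by limma), so a fall was not shown. The averaged fitted log2 difference of -0.26 (SE 0.10, adjusted p 0.325) rests on those dim values. CDC45 differed by 0.01, GINS2 by -0.02, GINS3 by -0.10 and MCM10 by 0.09, with adjusted p from 0.615 to 0.986.

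Among the polymerase, clamp and strand processing genes, 14 were tested and their median log2 difference was -0.02. RFC2, a subunit of the clamp loader, had the smallest p of all members. It read 534 and 442 units at 24 h with empty vector and 379.8 and 368 with GRHL1, and at 48 h 451 and 431 against 391 and 385. At 72 h it read 426 and 452 against 450.0 and 435, so the GRHL1 arrays were the lower ones at 24 and 48 h and overlapped the empty vector arrays at 72 h. The log2 difference was -0.44 at 24 h (SE 0.11, adjusted p 0.218) and -0.22 in the average (SE 0.07, unadjusted p 0.00779, adjusted p 0.176). A second RFC2 probe, with 203 to 239.8 units over all arrays, differed by 0.10 in the average, the opposite direction. RFC3 differed by -0.18, RFC4 by 0.06 and RFC5 by 0.04, and the clamp gene PCNA by 0.02 (adjusted p 0.942). Other probes differed by up to 0.04 for RFC3, by 0.03 for RFC4, by 0.43 for RFC5 and by -0.16 for PCNA. LIG1, the ligase that joins Okazaki fragments, read 384 and 307 units at 24 h with empty vector and 429.5 and 363 with GRHL1. Its ranges overlapped, and the log2 difference at 24 h was 0.25 (SE 0.16, adjusted p 0.734), or 0.05 without empty vector 24 h replicate 2. POLA1, the catalytic subunit of the primase-bearing polymerase, read 1104 and 1042 units at 48 h with empty vector and 902 and 975 with GRHL1. The difference there was -0.21 (SE 0.10, adjusted p 0.615), and the arrays overlapped at 24 h. POLD1, the catalytic subunit of DNA polymerase delta, read 449 and 495 units at 72 h with empty vector and 409 and 440.3 with GRHL1, a log2 difference of -0.18 (SE 0.12, adjusted p 0.848).

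The 4 nucleotide supply genes had a median log2 difference of -0.06. TK1, thymidine kinase, read 1312 and 1275 units at 24 h with empty vector against 1450.1 and 1342 with GRHL1. It read 1389 and 1377 against 1495 and 1460.5 at 48 h, and 1353 and 1287 against 1504 and 1357 at 72 h. The GRHL1 arrays of TK1 were above the empty vector arrays of the same time at all 3 times. The averaged log2 difference was 0.11 (SE 0.05, adjusted p 0.458). TYMS, thymidylate synthase, read 3698 and 4072 units at 72 h with empty vector and 3443 and 3477 with GRHL1, a log2 difference of -0.17 (SE 0.10, adjusted p 0.789). RRM1 and RRM2, the subunits of ribonucleotide reductase, differed by -0.05 and -0.07 in the average.

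Among the G1/S regulators, CDC25A had the smallest p. It encodes the phosphatase that removes inhibitory phosphates from CDK2 and CDK1. Its 48 h values were 794 and 844 units with empty vector and 575 and 724 with GRHL1. At 24 h it read 742 and 708 against 714 and 721, and at 72 h 714 and 735 against 702 and 661. The arrays were apart at 48 and 72 h and mixed at 24 h. The log2 difference at 48 h was -0.38 (SE 0.12, adjusted p 0.389), and the averaged one was -0.17 (SE 0.07, unadjusted p 0.0428, adjusted p 0.381). A second CDC25A probe differed by 0.14 in the average. E2F1, an activator of the programme, read 233 and 192 units at 48 h with empty vector and 185 and 189.7 with GRHL1 (log2 difference -0.27, SE 0.13, adjusted p 0.641), and the difference was -0.07 without empty vector 48 h replicate 1. One empty vector array of E2F1 stood high there, and the other was near the GRHL1 pair. E2F2 differed by 0.02, CCND1, which encodes cyclin D1, by 0.03 and CCNE1, which encodes cyclin E1, by 0.06 in the average.

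The chromatin and turnover genes were 3. CHAF1A, the large subunit of the histone chaperone CAF-1, read 350.1 and 355 units at 24 h with empty vector and 311 and 334 with GRHL1, a log2 difference of -0.16 (SE 0.10, adjusted p 0.731). DTL, the adaptor that marks CDT1 for destruction in S phase, read 874 and 724 units at 72 h with empty vector and 591 and 727 with GRHL1. That gave -0.31 (SE 0.15, adjusted p 0.705; -0.14 without GRHL1 72 h replicate 1), with 1 GRHL1 array low and the other inside the empty vector range. UHRF1, which brings the maintenance methyltransferase to replicated DNA, differed by -0.01 in the average.

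**Figure D2:**
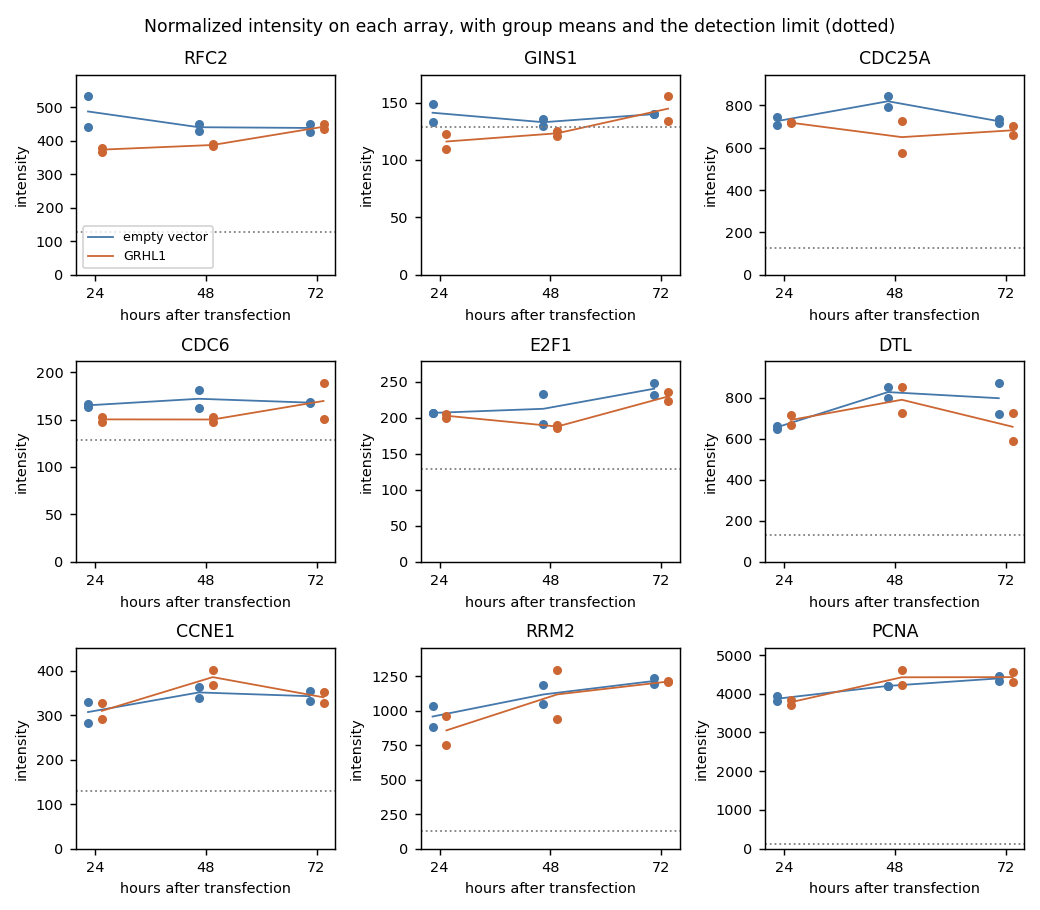
Normalized intensity of 9 members on every array against hours after transfection, with points for arrays, lines through the group means and a dotted line at the detection limit. RFC2 and CDC25A have low GRHL1 points at 24 h and at 48 h respectively, and RRM2 and PCNA are lower at 24 h than at 72 h with either plasmid.

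Taken time by time, the result was the same. At 24 h 0 of 42 members were called (0.381% of all genes), and 2 had an unadjusted p under 0.05 (8.76%), RFC2 and GINS1. At 48 h 0 were called (0.446%) and 1 had an unadjusted p under 0.05 (8.3%), CDC25A. At 72 h 0 were called (0.325%) and 0 had an unadjusted p under 0.05 (7.46%). The median log2 difference of the members was -0.005 at 24 h, -0.01 at 48 h and -0.02 at 72 h, against 0.02, -0.03 and -0.01 for all genes. With 1 array left out the median ran from -0.03 to 0.04 at 24 h and from -0.05 to 0.04 at 48 h, so its sign there rests on single arrays. Intervals are wider at 1 time than in the average, and of the 41 members other than GINS1 they lay inside 1.5-fold for 37 at 24 h (72.1% of all genes), 39 at 48 h (73.1%) and 39 at 72 h (74.2%). The shares of all genes here again include genes below the limit on some arrays, and each gene is again read from its brightest detected probe. With 2 arrays a group, non-overlap was common throughout the array. At 24 h, 6 members had both GRHL1 arrays higher (22.1% of all genes) and 9 had both lower (15.3%). At 48 h the numbers were 7 higher (17.1%) and 10 lower (22.6%), and at 72 h 5 higher (16.6%) and 5 lower (20%). The change of the plasmid difference over the times, an F test, called 0 members (0.00811% of all genes) and gave 0 an unadjusted p under 0.05 (5.4%). Its smallest p among the members were those of RFC2 (p 0.0534, adjusted p 0.904) and GINS1 (p 0.0766, adjusted p 0.927).

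**Figure D3:**
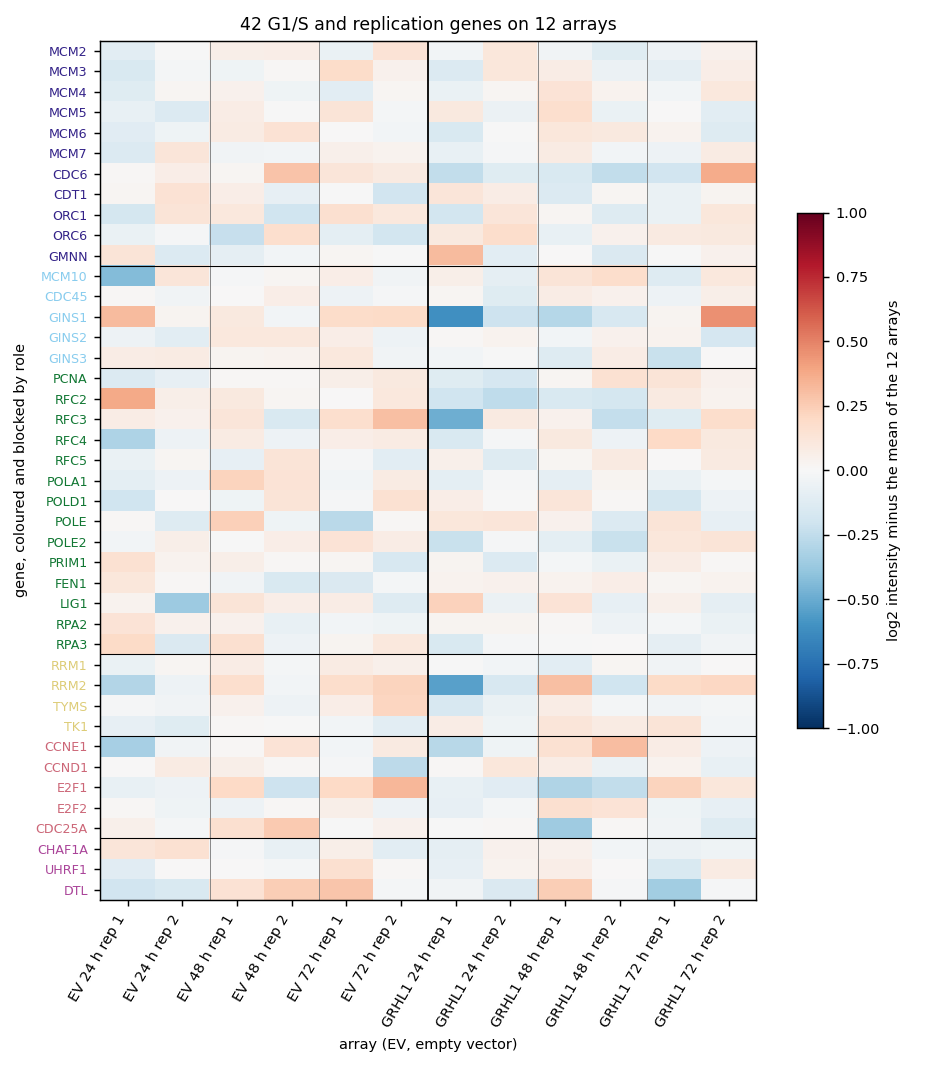
Centred log2 intensity of the 42 tested members (rows, blocked and coloured by role) on the 12 arrays (columns), where red is above and blue below the gene's mean over all arrays. No block of rows separates the GRHL1 columns on the right from the empty vector columns on the left, and the largest excursions are in GINS1, RRM2 and RFC3.

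The second comparison asked how the members moved with time after transfection under both plasmids together. From 24 to 48 h, 0 of 42 were called (0.519% of all genes). The median log2 difference was 0.05 (0.006 for all genes), and 27 members lay above 0 (51.6% of all genes). An unadjusted p under 0.05 was reached by 5 members (13.7%), all of them with higher values at 48 h (7.32%), namely CCNE1, DTL, MCM6, PCNA and RRM2. In 4 members all 48 h arrays were above all 24 h arrays (3.87%), and in 0 all were below (4.47%). From 24 to 72 h, 0 were called (0.868%), the median was 0.04 (0.01 for all genes) and 31 members lay above 0 (53.2%). The 5 members with an unadjusted p under 0.05 (15.2%) were RRM2, PCNA, E2F1, RFC4 and GINS1, all with higher values at 72 h (8.65%). All 72 h arrays were above all 24 h arrays in 5 members (4.35%) and below them in 1 (4.54%). Both comparisons use the same 24 h arrays. From 48 to 72 h 0 were called (0.0243%), and E2F1, GINS1 and POLE2 had an unadjusted p under 0.05 (8.29%), all higher at 72 h (4.83%).

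RRM2, the small and limiting subunit of ribonucleotide reductase, had the largest difference of the members from 24 to 72 h. It read 883 and 1033 units with empty vector and 754 and 962 with GRHL1 at 24 h. At 48 h it read 1188 and 1049 against 1298 and 939.8, and at 72 h 1197 and 1236 against 1206 and 1218. All 4 of the 72 h arrays were above all 4 of the 24 h arrays. The log2 difference from 24 to 72 h was 0.46 (SE 0.13, adjusted p 0.141). PCNA read 3803 and 3939 units with empty vector and 3849 and 3714 with GRHL1 at 24 h. It read 4202 and 4201 against 4229 and 4619.8 at 48 h, and 4336 and 4455 against 4567 and 4289.9 at 72 h. Every later array of PCNA was above every 24 h array, with a log2 difference of 0.17 at 48 h (SE 0.06, adjusted p 0.28) and 0.21 at 72 h (SE 0.06, adjusted p 0.175).

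MCM6, a helicase subunit, read 2509.9 and 2635 units with empty vector and 2448 and 2698 with GRHL1 at 24 h, and 2863, 2985, 2935 and 2897 at 48 h in the same order. At 72 h it read 2723, 2656, 2773 and 2486 units. The 48 h arrays were above all of the others, by 0.19 over 24 h (SE 0.07, adjusted p 0.28), and 72 h minus 48 h was -0.14 (SE 0.07, adjusted p 0.644). CCNE1 read 283, 331, 291 and 328 units at 24 h in that order, and 339, 363, 369 and 402 at 48 h. Its values at 72 h were 331, 354, 352 and 328. The 48 h arrays were again above all 24 h arrays, with a log2 difference of 0.32 (SE 0.09, adjusted p 0.184). DTL read 649, 664, 716 and 668 units at 24 h and 802, 855, 856 and 727 at 48 h, a log2 difference of 0.29 (SE 0.10, adjusted p 0.272). RFC4, another clamp loader subunit, read 1952, 2320.0, 2168 and 2382 units at 24 h and 2505, 2538, 2745 and 2561 at 72 h. Its 72 h arrays were all above its 24 h arrays, by 0.24 (SE 0.08, adjusted p 0.213).

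E2F1 read 206, 207, 205 and 200.1 units at 24 h, 233, 192, 185 and 189.7 at 48 h and 232, 248, 236 and 223 at 72 h. Its log2 difference was 0.29 from 24 to 72 h (SE 0.09, adjusted p 0.18) and 0.35 from 48 to 72 h (SE 0.09, adjusted p 0.343). All 72 h arrays of E2F1 were above the 24 h arrays, while 1 of the 48 h arrays reached them. POLE2, a subunit of DNA polymerase epsilon, read 1182, 1236, 1116 and 1028 units at 48 h and 1295, 1244, 1279 and 1290.2 at 72 h, a log2 difference of 0.18 (SE 0.07, adjusted p 0.57). GINS1 differed by 0.34 from 24 to 72 h (SE 0.12, adjusted p 0.242), with 2 of its 4 arrays at 24 h and at 48 h below the limit.

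Within each plasmid alone, 0 of 42 members were called in any of the 6 time comparisons. In empty vector cells this was so from 24 to 48 h (0.00811% of all genes called), from 24 to 72 h (0.0568%) and from 48 to 72 h (0%). In GRHL1 cells it was so from 24 to 48 h (0.0974%), from 24 to 72 h (0.211%) and from 48 to 72 h (0%). From 24 to 72 h under both plasmids the count depended on the model. With limma-trend and robust moderation 3 members passed, RRM2 (adjusted p 0.0202), PCNA (0.028) and RFC4 (0.038), and with no background correction 1 did, RRM2 (adjusted p 0.0208). Without the 2 arrays of conflicting time 0 members were called in any comparison.

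**Figure D4:**
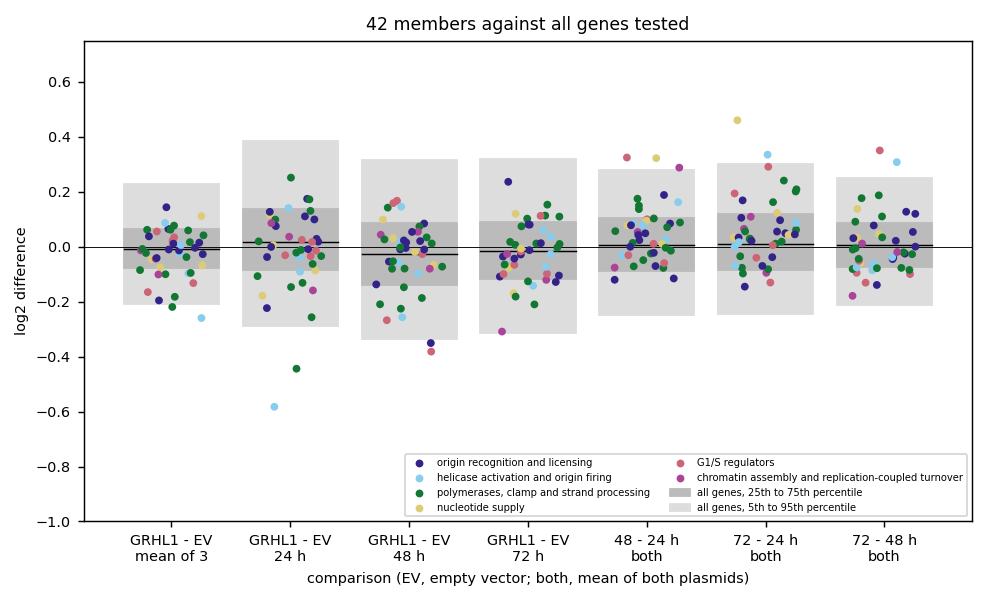
Log2 differences of the 42 tested members (points coloured by role) in 7 comparisons, over grey bands for the 25th to 75th and 5th to 95th percentiles of all 12323 genes. Points of the plasmid comparisons centre on 0, with medians of -0.01, -0.005, -0.01 and -0.02, and those at 48 and 72 h against 24 h on 0.05 and 0.04.

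The members' median level was also followed on each array, as the median of log2 intensity centred on each gene's mean. It ran from -0.058 to 0.053 over the 12 arrays. The 24 h arrays lay at -0.058 and -0.008 with empty vector and -0.052 and -0.010 with GRHL1. The later ones lay between -0.023 and 0.053, and the ranges of the plasmids overlapped at every time. Between replicates the members had a median pooled SD of 0.0972 on the log2 scale (0.142 for all genes), from 0.0457 for E2F2 to 0.223 for RFC3. All genes include genes below the limit on some arrays, so the sets are unlike.

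**Figure D5:**
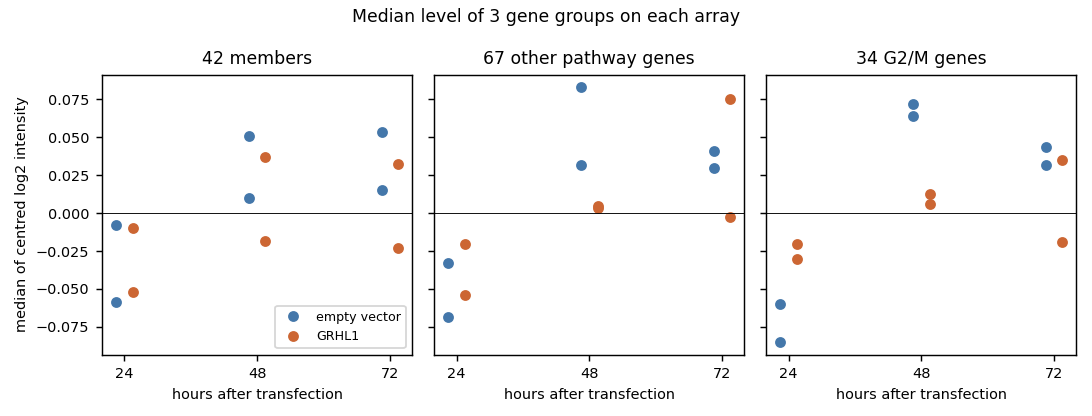
Median centred log2 intensity of the 42 members, of 67 other genes of the replication pathway and of 34 G2/M and mitosis genes on each array, against hours after transfection. In each panel the 4 arrays at 24 h lie below 0, and the plasmids lie among each other in the members.

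Several probes of one gene did not always go the same way. Of the members 26 had 1 detected probe and 16 had more, and in 9 of those 16 all probes had the same sign in the averaged plasmid comparison. Besides RFC2 and CDC25A, the probes of RFC3, ORC6, PCNA, FEN1 and MCM10 differed in sign. Probes of the same sign also differed in size. The probes that stood for RFC5 and CCNE1 were at 0.04 and 0.06, and their other probes at 0.43 and 0.36. For POLA1 these values were -0.08 and -0.32. MCM7 had the same sign throughout but unequal sizes, at -0.004 for the probe that stood for the gene and -0.47 for its second probe (ILMN_1704702). That probe read 585, 615, 728, 532, 715 and 722 units on the empty vector arrays and 358, 495, 545, 431, 559 and 558 on the GRHL1 arrays, in order of time and replicate. In a fit of all 16501 probes its adjusted p was 0.128, and 0 of the members' 60 detected probes were called in any of the 7 comparisons.

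Other genes of the pathway gave the same counts of calls. A list of other replication and G1/S genes held 73, of which 67 were tested, and 0 were called in any comparison. In the averaged plasmid comparison their median was -0.02, and the smallest p were those of RB1, the retinoblastoma protein gene (-0.19, SE 0.06, adjusted p 0.221), and ORC3 (-0.14, SE 0.05, adjusted p 0.272). From 24 to 72 h their median was 0.06, and 11 of 67 had an unadjusted p under 0.05 (15.2% of all genes), all higher at 72 h (8.65%), where the median of all genes was 0.01. They were led by FBXO5, which encodes the APC/C inhibitor EMI1 (0.33, SE 0.07, adjusted p 0.0789). Of 34 G2/M and mitosis genes 0 were called, with medians of -0.02 for the plasmid, 0.09 from 24 to 48 h and 0.10 from 24 to 72 h. CENPF, a kinetochore protein gene, had the smallest p in both time comparisons (0.33 in each, SE 0.07, adjusted p 0.0776 and 0.0663). Of 5 CDK inhibitor genes tested, CDKN2B (p15) passed the test for the plasmid at 48 h and in 0 of the other 6 comparisons. Its empty vector arrays there read 139.5 and 141 units, and both GRHL1 arrays, at 110.1 and 102.5, lay below the detection limit. The GRHL1 mean was thus at least 1.09-fold lower. The fitted difference had an adjusted p of 0.00593 by limma (0.00726 to 0.13 over the alternatives). Without GRHL1 48 h replicate 1 and the other array of conflicting time the adjusted p was 0.0397. At 24 h all 4 arrays of CDKN2B lay below the limit. At 72 h the order was the opposite, with 123.0 and 126.1 units for empty vector, below the limit, and 130.8 and 135.5 for GRHL1 (adjusted p 0.839). CDKN2D (p19) differed by 0.22 in the averaged comparison (SE 0.07, adjusted p 0.174).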

How the data were processed

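The authors deposited 2 tables of linear intensity for 47323 probes, one from the scanner, with a detection p-value beside each deposited intensity per the file headers, and one normalized. The sources used here do not give how they normalized it, and its array medians ran from 119.7 to 121.0 units. Ranks of each scanner column fitted 1 normalized column (rank correlation at least 0.999974, next best at most 0.8757), although 7 names conflicted. The scanner table served only to count the arrays on which a probe was detected, as p under 0.01 and above background, since 3416 to 4076 probes per array had such a p while lying below background.

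The normalized intensity was corrected with limma's normexp model (offset 16) and put on the log2 scale. For dim genes the fitted log2 differences are therefore larger than the printed units give. That of GINS1 at 24 h was -0.58, and -0.28 with no background correction. A missing value (1 in all) was set to the median of that probe. Of the probes, 30113 had 1 gene in the platform annotation, 8 had several and 17202 had none. The Entrez identifier of 30074 was present in the RefSeq gene table (GRCh38.p14, used for symbols), which altered 0 symbols. A probe had to be detected on 2 or more of the 12 arrays, and each gene was read from its brightest such probe, which gave 12323 genes. limma fitted a mean for each of the 6 groups over all 12 arrays (6 residual and 3.72 prior degrees of freedom), and a gene was called at a Benjamini-Hochberg adjusted p under 0.05, adjusted over every gene tested. SE is limma's moderated standard error. The detection limit is the level that 95% of undetected probes did not reach, and the fold of a group wholly below it is a bound. Such a bound is for the measured means and leaves out the spread between arrays. The script was tested on simulated data.

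The members, gene lists and tests were chosen with earlier results of these data known. Array values are given for the 4 members with the smallest p in each comparison, for some of them only at the times compared, and promoters follow the order of p in the averaged comparison. From each other list the 2 smallest p, or called genes, were eligible, and not all are printed. Promoters came from RefSeq. Alternatives changed the background correction, the offset, the scaling between arrays, the detection filter, the probe choice, the variance model and the arrays fitted, added a replicate block, or left out each array. Versions were R 4.3.3, limma 3.58.1, Python 3.11.15, numpy 2.4.6, pandas 2.3.3 and matplotlib 3.10.9.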

Additional observations from a re-analysis of the deposited data

How the results depend on the processing

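Over 23 settings, the count of members called stayed at 0 in all comparisons except 72 h minus 24 h under both plasmids, which gave 1 with no background correction and 3 with limma-trend and robust moderation. Leaving out each of the 12 arrays in turn gave 0 members called in every comparison. Single members were followed only where they had the 4 smallest p in a comparison. Of their 609 values under alternatives 605 kept direction and side of the threshold, 4 became called and 0 reversed. The members' median stayed between -0.03 and -0.003 in the averaged plasmid comparison and between 0.03 and 0.06 from 24 to 72 h. With 1 array left out it ran from -0.03 (without empty vector 24 h replicate 1) to 0.04 (without empty vector 24 h replicate 2) at 24 h, from -0.05 (without empty vector 48 h replicate 2) to 0.04 (without GRHL1 48 h replicate 2) at 48 h, from -0.03 to -0.01 at 72 h and from 0.02 to 0.06 from 24 to 48 h. Of the 28 member differences so followed, none of them called, 12 moved over 1.5 times when 1 array was left out and 0 changed sign. They were picked by p in these same data, so their steady sign does not speak for the other members. The ranges were -0.60 to -0.29 for RFC2, -0.78 to -0.38 for GINS1 and 0.05 to 0.45 for LIG1 at 24 h, -0.57 to -0.20 for CDC25A, -0.48 to -0.22 for CDC6 and -0.47 to -0.07 for E2F1 at 48 h, and -0.48 to -0.14 for DTL at 72 h. The count of all genes called moved more. In the averaged comparison it was 211, with 128 to 185 when 1 array was left out, 106 without the 2 arrays of conflicting time (an alternative chosen after seeing the data) and 392 with limma-trend. It was 47 at 24 h (10 to 123 over all settings), 55 at 48 h (12 to 124), 40 at 72 h (12 to 97), 64 from 24 to 48 h (6 to 290), 107 from 24 to 72 h (12 to 453), 3 from 48 to 72 h (0 to 42) and 1 for the change with time (0 to 4). The cause was not tested. The series calls replicates paired without saying what a number marks. Deviations of same-numbered arrays correlated at 0.114, 0.0175 and 0.0297 at 24, 48 and 72 h, so the numbers were not shown to pair arrays. With the replicate block 0 members were called in every comparison, and all genes called were 143 in the averaged comparison. CCNE2 was detected on 0 arrays, and GINS1 lay below the detection limit on both GRHL1 arrays at 24 and 48 h, where only a bound can be given.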
